A study of Rattus norvegicus with 3 samples.

Results

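The genes described here are 41 genes of the synaptic vesicle cycle and of the ribbon synapse. They were taken by gene symbol from the table of 18425 genes, and all 41 were found. The retinas came from wild-type Sprague-Dawley rats and were harvested at P4 after an intravitreal (IVIT) injection of 1 µl at P1. The 3 groups were citrate buffer (pH 4.5), the vehicle, saline, and 10 µg of streptozotocin (STZ), a glucosamine-nitrosourea that alkylates DNA, which was dissolved in that buffer. Each group is 1 library, so no difference has a replicate check and no p-value was computed. How many retinas or animals each library held is not given in the sources used here. In the study, buffer went into the left eyes of animals that received STZ in the right eye, so the STZ and buffer libraries may share animals.

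A synaptic vesicle is filled with transmitter by a transporter, docks at the active zone, fuses through SNARE proteins when calcium enters, and is then retrieved by endocytosis. Photoreceptors and bipolar cells of the retina release glutamate at ribbon synapses, where a protein sheet tethers many vesicles beside L-type calcium channels. Ribbon synapses use their own forms of several of these proteins, such as syntaxin 3 in place of syntaxin 1. In the rodent retina at P4, cones and early amacrine and ganglion cells are present, rods are still being added, and the outer plexiform layer is only forming.

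The totals of the read counts were 21992701 (buffer), 21977846 (saline) and 22031241 (STZ). Cell markers were read as a check of the tissue. No marker found for ganglion, amacrine, horizontal, photoreceptor, bipolar, Müller or progenitor cells was at 0 in any library. Libraries also differed in the reads of lens, pigment and ciliary, and microglia markers, and the source of these reads was not tested. The 15 lens markers summed to 349, 802 and 4160 reads in the same order, with Cryba2 and Crybb2 at 0 in buffer. Lens markers did not rise alike, with Cryaa at 55, 211 and 928 reads and Mip at 73, 73 and 86. The 11 markers of pigment and ciliary epithelium summed to 3057, 10012 and 3110 reads, with Rpe65 at 0 in buffer. Aldh1a1 alone held 1904, 6838 and 1904 of these reads. Pmel was also highest in saline, at 252, 940 and 240, while Ttr was lowest there, at 477, 398 and 456. The 10 microglia markers summed to 1365, 1693 and 3864 reads, with none at 0.

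Level is given as FPKM, which scales fragments by transcript length and by library size. All 41 genes averaged 10 or more counts across the libraries, and their averages ran from 74.3 to 13319. In buffer the FPKM of the 41 genes ran from 1.59 to 288 with a median of 27.2, where the median over all 14885 genes with at least 10 counts was 12.6. Synaptophysin (Syp), an abundant vesicle membrane protein, had the highest level of the 41 in each library. It was followed by Vamp2, the main vesicle SNARE of neurons, with an FPKM of 140 (buffer), 141 (saline) and 152 (STZ). Syt2, a calcium sensor of fast synapses, was lowest, with 81, 59 and 83 reads.

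**Figure D1:**
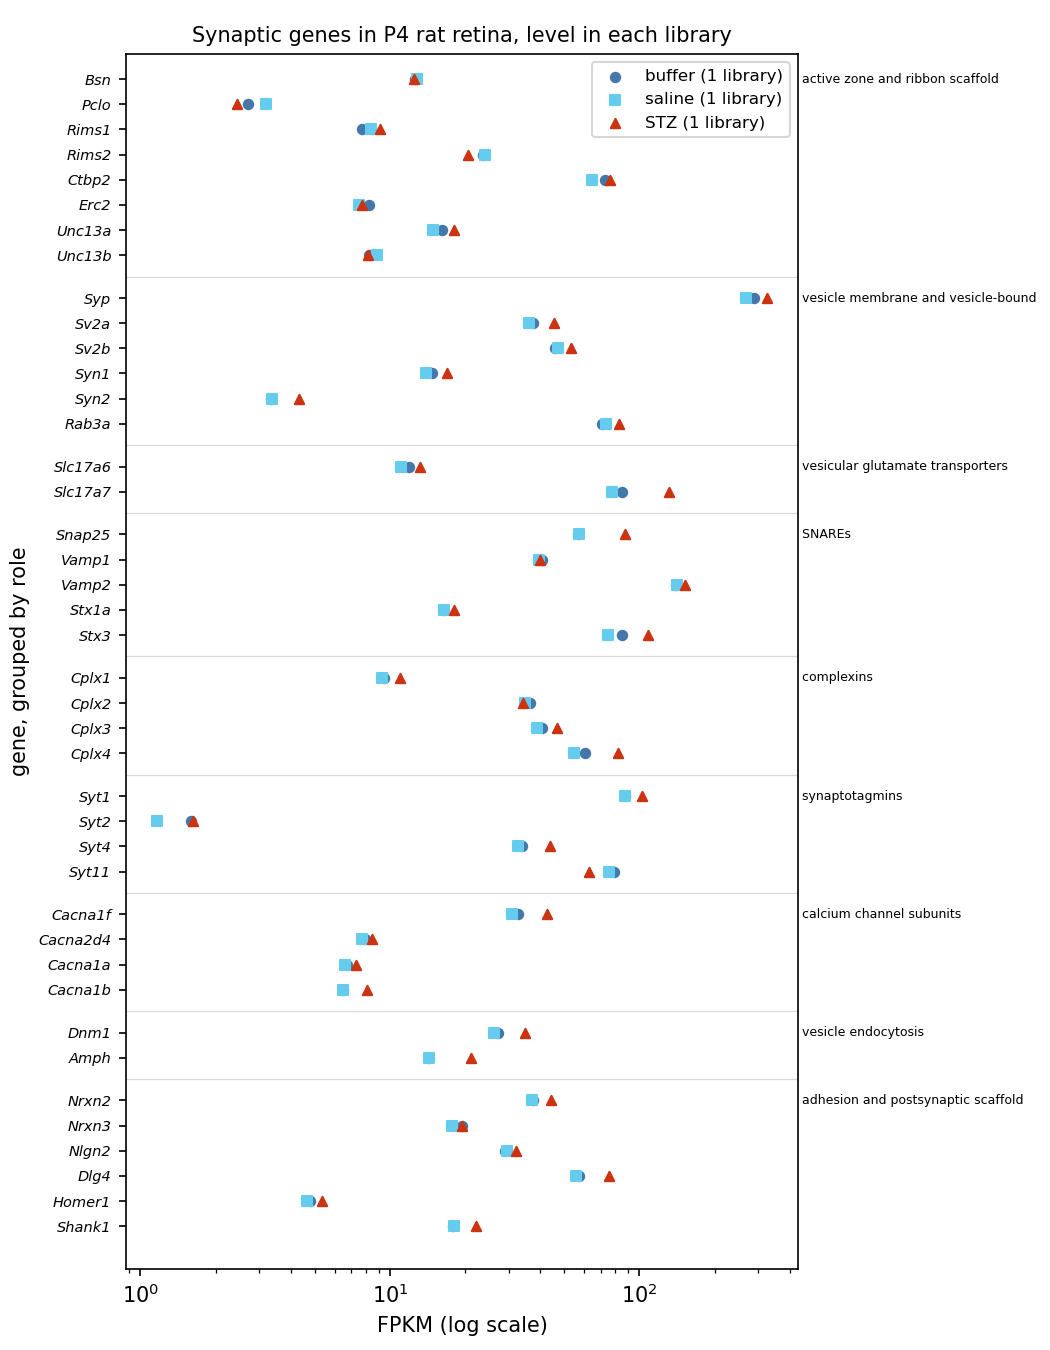
FPKM on a log scale (x axis) of each of the 41 genes (y axis, grouped by role) in the buffer, saline and STZ libraries, 1 symbol per library. Buffer and saline symbols mostly overlap, while the STZ triangle of Slc17a7 at 131 and that of Snap25 at 87.5 lie to the right of both control symbols.

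The fold of a gene was (FPKM + 1)/(FPKM + 1), and the thresholds were those of the study, which lie at 0.62 and -0.62 on the log2 scale. In STZ against buffer, 0 of the 41 genes passed in either direction, where 2.25% of all genes passed upward and 1.04% downward. Snap25 and Slc17a7 lay just under the upper threshold, each at a fold of 1.53. In STZ against saline, 1 of the 41 passed upward, Slc17a7 at 1.68, and 0 passed downward, where 2.04% and 1.75% of all genes did. In saline against buffer, 0 passed, where 1.00% of all genes passed upward and 0.429% downward. The number past the thresholds was thus close to the background in each comparison.

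Most of the 41 genes were nonetheless slightly higher in the STZ library. Against buffer, 33 of the 41 had a fold above 1, where 56.0% of genes with at least 10 counts did. The median log2 fold of the 41 was 0.18, beside 0.03 over all such genes. Against saline, 35 of the 41 had a fold above 1, where the background was 52.1%, and the median was 0.23 beside 0.01. Both comparisons use the same STZ library. Between the controls the direction was the opposite, with 12 of the 41 above 1 in saline against buffer, where 54.7% of genes were, and a median of -0.03 beside 0.02. In these bulk samples, more or fewer cells of a type and more or less RNA per cell cannot be told apart.

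**Figure D2:**
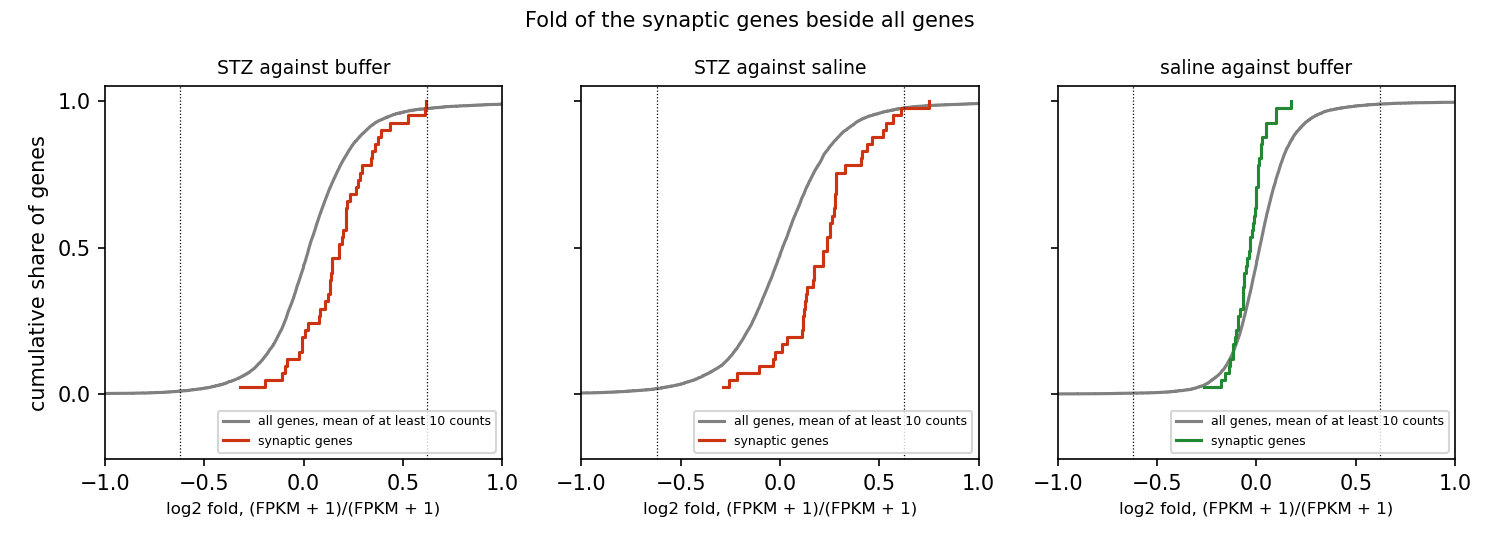
Cumulative share of genes (y axis) by log2 fold (x axis) in the 3 comparisons, for the 41 synaptic genes (coloured steps) and for all genes averaging 10 or more counts (grey). Dotted lines mark the thresholds at 0.62 and -0.62. The coloured steps lie to the right of the grey line over most of their range in both STZ panels, with medians of 0.18 and 0.23, and slightly to the left in the panel of the controls.

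The counting error was taken from the reads. A count ratio is a gene's share of the reads in a library over its share in another, and its count interval is an exact Clopper-Pearson 95% interval. Below, the interval in parentheses after a fold is always that of the count ratio, which for genes of low level tends to lie further from 1 than the fold, since 1 is added to each FPKM. No molecular identifiers were used, so reads can repeat a molecule, and these intervals cover counting error only and compare libraries, not conditions. In STZ against buffer, 28 of the 41 genes had an interval wholly above 1 and 3 wholly below 1, where 26.2% and 18.8% of genes with at least 10 counts did. In STZ against saline the numbers were 28 and 3, where 26.9% and 23.5% of genes did. Deeply counted genes have narrow intervals, so the same count was made among genes averaging 1000 or more counts. Of the 27 synaptic genes at that depth, 21 were above 1 against buffer and 22 against saline, where the backgrounds were 29.7% and 33.5%. In saline against buffer, 1 of the 41 was above 1, where 15.9% of genes were, and 8 were below, where 1780 of the 14885 genes were. The 9 intervals that exclude 1 in either direction compare with 27.8% of genes.

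**Figure D3:**
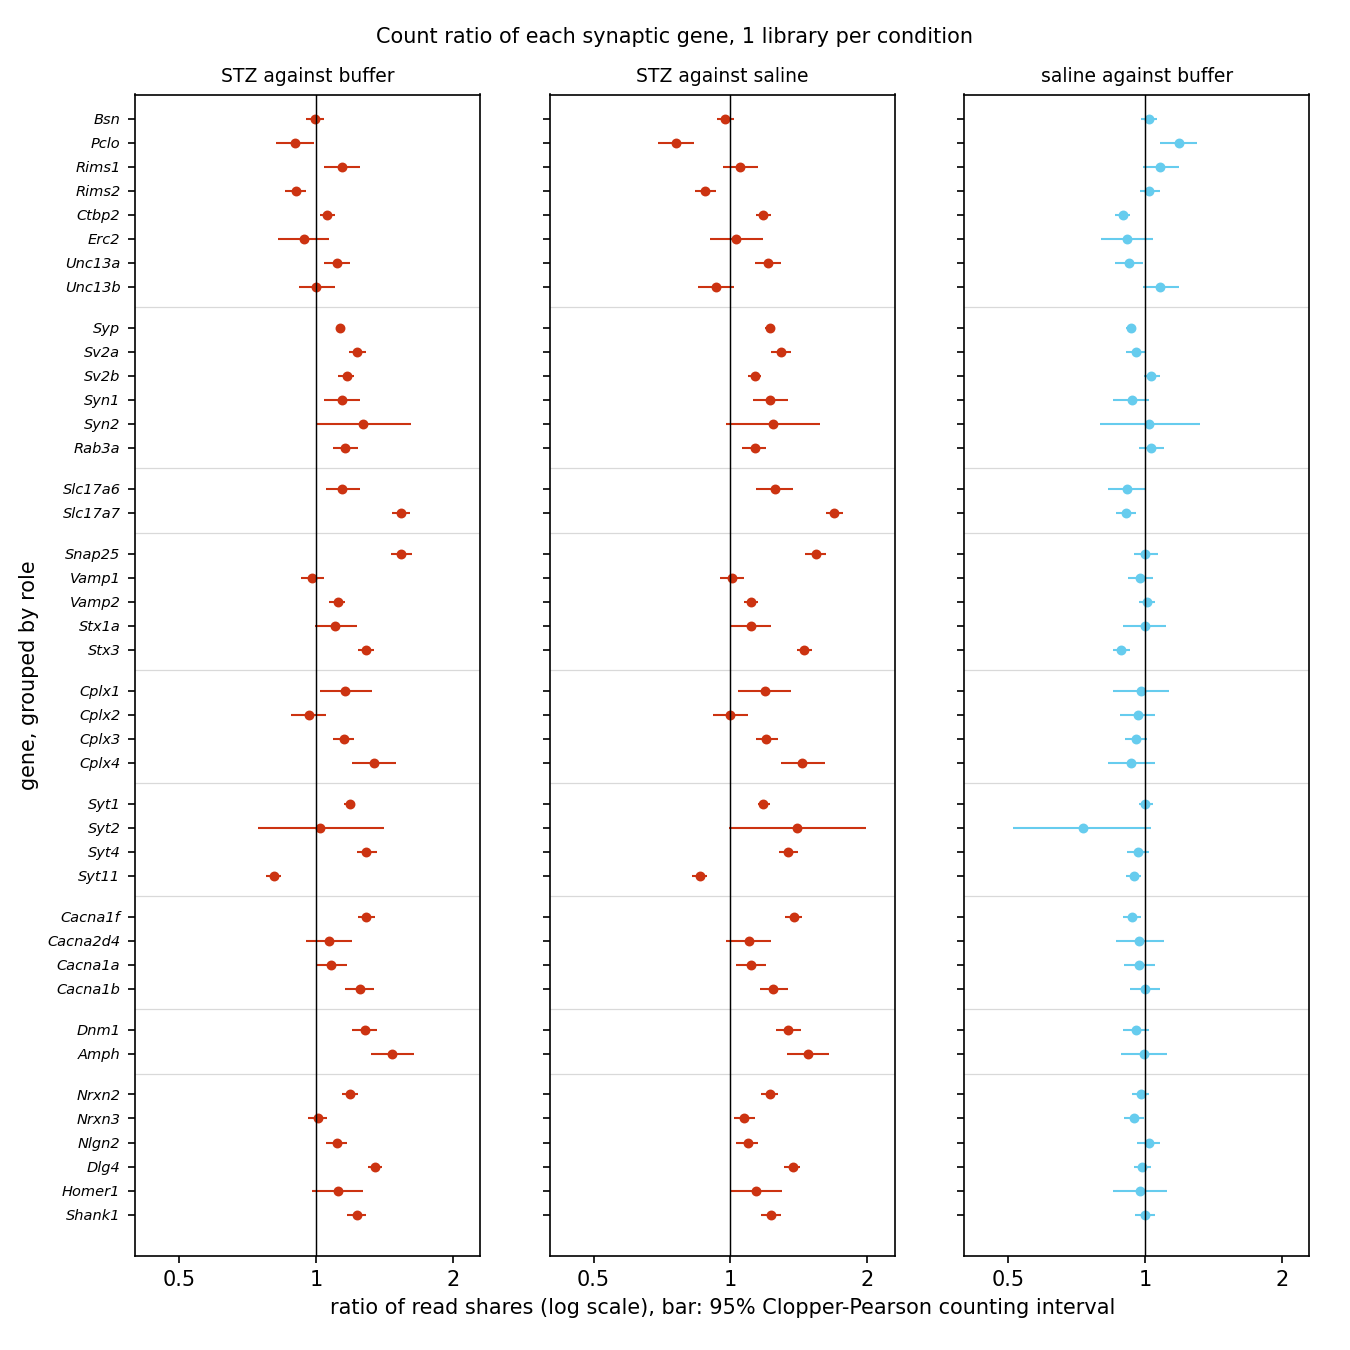
Count ratio (x axis, log scale) of each of the 41 genes (y axis, grouped by role) in STZ against each control and between the controls, with bars for the 95% Clopper-Pearson counting interval. In each STZ panel 28 intervals lie wholly above 1 and 3 wholly below, and in the panel of the controls 1 lies above and 8 below.

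The vesicular glutamate transporters load glutamate into vesicles. Slc17a7 (gene ID 116638), which encodes VGLUT1 of photoreceptors and bipolar cells, had an FPKM of 85.1 (buffer), 77.4 (saline) and 131 (STZ), from 3324, 3019 and 5117 reads. Its fold was 1.53 against buffer (count interval 1.47 to 1.61) and 1.68 against saline (1.62 to 1.77). The saline library lay below buffer for this gene, with a count ratio of 0.909 (0.865 to 0.955), a smaller difference than that of STZ from either control. Slc17a6 encodes VGLUT2, the transporter of ganglion cells. It had an FPKM of 11.9, 11.1 and 13.2 and folds of 1.10 (1.05 to 1.25) and 1.18 (1.14 to 1.37).

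Among the SNAREs, which pull vesicle and plasma membrane together, 3 of 5 genes had an interval above 1 against buffer and against saline, and 0 below. The background was 26.2% above and 18.8% below against buffer, and 26.9% and 23.5% against saline. Snap25 (gene ID 25012), the plasma membrane SNARE of neurons, had an FPKM of 56.7 (buffer), 57.0 (saline) and 87.5 (STZ). Its fold was 1.53 against buffer (1.46 to 1.63) and 1.53 against saline (1.46 to 1.62), while saline and buffer could not be separated by their counts, at 1.00 (0.946 to 1.07). Stx3, the syntaxin of ribbon synapses, had 85.3, 75.1 and 108, a fold of 1.26 (1.24 to 1.34) against buffer and 1.43 (1.40 to 1.51) against saline. Here too saline was the lowest library, with a ratio of 0.886 (0.849 to 0.926) to buffer. The vesicle SNARE Vamp2 had folds of 1.09 (1.07 to 1.16) and 1.08 (1.07 to 1.15). Stx1a, the syntaxin of conventional synapses, had an FPKM of 16.4, 16.4 and 18.1 and intervals that hold 1 against both controls. Vamp1, a second vesicle SNARE, was flat at 40.6, 39.7 and 39.9.

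All 6 genes of proteins in or bound to the vesicle membrane were higher in STZ than in buffer, by folds of 1.13 to 1.22. The background of folds above 1 was 56.0% of genes with at least 10 counts. The FPKM of Syp was 288 (buffer), 268 (saline) and 326 (STZ), with folds of 1.13 (1.11 to 1.16) and 1.22 (1.19 to 1.25). The glycoprotein gene Sv2a had 37.6, 36.0 and 45.5 and folds of 1.20 (1.18 to 1.29) and 1.26 (1.23 to 1.36). Its relative Sv2b had 45.7, 47.2 and 53.4 and folds of 1.16 (1.12 to 1.21) and 1.13 (1.09 to 1.17). Rab3a, the vesicle GTPase, was at 71.0, 73.5 and 82.7, with folds of 1.16 (1.09 to 1.24) and 1.12 (1.06 to 1.20). Synapsins tether vesicles in the reserve pool of conventional synapses. Syn1 had 14.8, 13.9 and 16.9, with folds of 1.13 (1.04 to 1.25) and 1.21 (1.12 to 1.34). Syn2 had 128, 131 and 163 reads, and its interval against saline, 0.980 to 1.57, holds 1.

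Complexins clamp and then release the SNARE complex, and Cplx3 and Cplx4 are the forms of retinal ribbon synapses. Cplx4 had an FPKM of 60.4 (buffer), 54.8 (saline) and 81.9 (STZ), the highest of the 4 in each library. It had folds of 1.35 (1.20 to 1.50) and 1.49 (1.29 to 1.61). Cplx3 was at 40.6, 38.8 and 46.6, with folds of 1.14 (1.09 to 1.21) and 1.20 (1.14 to 1.27). Of the conventional forms, Cplx1 had 9.45, 9.32 and 11.0 and folds of 1.15 (1.02 to 1.33) and 1.16 (1.04 to 1.36). Cplx2 had 36.5, 34.8 and 34.1, and its intervals, 0.882 to 1.05 and 0.915 to 1.09, hold 1. In all, 3 of the 4 complexins had an interval above 1 against each control, and Cplx2 did not. The shares of genes with at least 10 counts above 1 were 26.2% against buffer and 26.9% against saline.

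The synaptotagmins diverged. Syt1, the calcium sensor of fast release, had an FPKM of 87.8 (buffer), 87.7 (saline) and 102 (STZ), with folds of 1.16 (1.15 to 1.22) and 1.16 (1.15 to 1.22). Syt4, a form that does not bind calcium in the usual way, was at 33.8, 32.6 and 43.7, with folds of 1.29 (1.23 to 1.36) and 1.33 (1.28 to 1.41). Syt11, also a form without calcium sensing, was the lowest of the 41 by fold against buffer. It had 78.8, 75.2 and 62.8, from 6127, 5777 and 4961 reads, and folds of 0.800 (0.778 to 0.839) and 0.838 (0.825 to 0.890). Its order among the 41 levels went from 6 in buffer to 11 in STZ. For Syt2 the counts were too few to show a difference, with intervals of 0.744 to 1.41 and 0.993 to 1.99.

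Of the calcium channel genes, Cacna1f encodes the L-type pore of photoreceptor and bipolar terminals. Its FPKM was 32.7 (buffer), 30.8 (saline) and 42.8 (STZ), from 3950, 3689 and 5105 reads. The folds were 1.30 (1.24 to 1.35) and 1.38 (1.32 to 1.44). Cacna2d4, its auxiliary subunit at the same synapses, had 7.95, 7.74 and 8.48 and intervals that hold 1, 0.950 to 1.20 and 0.976 to 1.23. The pores of conventional terminals were lower in level. Cacna1b was at 6.51, 6.50 and 8.09 with folds of 1.21 (1.16 to 1.34) and 1.21 (1.16 to 1.34), and Cacna1a at 6.74, 6.62 and 7.33 with folds of 1.08 (1.00 to 1.17) and 1.09 (1.03 to 1.20).

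Both endocytosis genes were higher in STZ. Amph encodes amphiphysin, which brings dynamin to the necks of budding vesicles. It had an FPKM of 14.4 (buffer), 14.4 (saline) and 21.2 (STZ), with folds of 1.44 (1.32 to 1.64) and 1.45 (1.33 to 1.65). Dnm1, the neuronal dynamin that cuts those necks, had 27.2, 26.1 and 34.9 and folds of 1.27 (1.20 to 1.36) and 1.33 (1.26 to 1.43). The counts of Amph are fractional, so its intervals leave out the error of the estimation.

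The active zone and ribbon scaffold had a median log2 fold over its 8 genes of -0.01 against buffer and of 0.00 against saline. Against buffer, 3 of the 8 had an interval above 1 and 2 below, where 26.2% and 18.8% of genes with at least 10 counts did. Against saline 2 were above and 2 below, where 26.9% and 23.5% of genes were. These numbers were thus close to the background. Ctbp2, whose locus also encodes the ribbon protein RIBEYE, had an FPKM of 72.5, 64.8 and 76.5 and folds of 1.06 (1.02 to 1.10) and 1.18 (1.14 to 1.23). The table counts the gene as a whole, so RIBEYE and CtBP2 cannot be told apart. Unc13a, a vesicle priming factor, had 16.2, 14.9 and 18.0 and folds of 1.11 (1.04 to 1.19) and 1.19 (1.13 to 1.29). Rims2, a scaffold that links channels and vesicles, was lower, at 23.7, 24.1 and 20.6, with folds of 0.874 (0.855 to 0.952) and 0.862 (0.834 to 0.928). Pclo, a giant active zone scaffold, was at 2.70, 3.18 and 2.43, with folds of 0.927 and 0.821 and count ratios of 0.900 (0.818 to 0.990) and 0.759 (0.692 to 0.832). It was also the 1 gene of the 41 above 1 in saline against buffer, at a ratio of 1.19 (1.08 to 1.30). The counts of Rims2 and Pclo are fractional, as are those of Amph and Cacna1b, 4 of the 41 in all. Bsn, which anchors the ribbon, was flat at 12.6, 12.8 and 12.5, with a count interval of 0.952 to 1.04 against buffer. Erc2, Unc13b and Rims1 had folds of 0.945, 0.995 and 1.16 against buffer and intervals that hold 1 against saline.

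Of the 6 adhesion and postsynaptic genes, all had folds above 1 against both controls, where 56.0% (buffer) and 52.1% (saline) of genes did. Nrxn3, however, came out below 1 against buffer with TMM or median-of-ratios library factors. Dlg4 encodes PSD95, which in the retina sits in photoreceptor terminals as well as in postsynaptic sites. Its FPKM was 57.5 (buffer), 55.5 (saline) and 75.6 (STZ), with folds of 1.31 (1.30 to 1.40) and 1.36 (1.31 to 1.42). Shank1, a postsynaptic scaffold, was at 17.9, 18.0 and 22.1, with folds of 1.22 (1.17 to 1.29) and 1.22 (1.17 to 1.29). The presynaptic adhesion gene Nrxn2 had 37.6, 37.2 and 44.4 and folds of 1.18 (1.14 to 1.24) and 1.19 (1.17 to 1.27). Its partner Nlgn2, the neuroligin of inhibitory synapses, had 29.0, 29.5 and 32.1 and folds of 1.10 (1.05 to 1.17) and 1.09 (1.03 to 1.15). Homer1, a postsynaptic scaffold, and Nrxn3, a neurexin, had folds of 1.10 and 1.00 against buffer, where both intervals hold 1, though not against saline.

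By median, the roles differed in size. Endocytosis and glutamate transport had median log2 folds of 0.44 and 0.38 against buffer, vesicle membrane genes 0.22, complexins 0.20, calcium channels 0.19, adhesion and postsynaptic genes 0.19, SNAREs 0.13 and synaptotagmins 0.12, ahead of the scaffold at -0.01. Against saline the medians were 0.47 for endocytosis, 0.49 for glutamate transport, 0.27 for vesicle membrane genes, 0.25 for synaptotagmins, 0.24 for complexins, 0.21 for adhesion and postsynaptic genes, 0.20 for calcium channels, 0.14 for SNAREs and 0.00 for the scaffold, so the order was not the same. Endocytosis and glutamate transport rest on 2 genes each. Roles hold 2 to 8 genes, and no test of a difference between roles was made.

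Family partners were compared next, because several families have a ribbon form and a conventional form. The 8 pairs were chosen after the values were seen. By FPKM the ribbon form already stood at 2.20 or more times its partner in buffer in 4 of these pairs. Unc13b stood at 0.510 times Unc13a, and Sv2b at 1.21 times Sv2a. Slc17a7 stood at 7.15 times Slc17a6, Stx3 at 5.19 times Stx1a, Cacna1f at 2.47 times the sum of Cacna1a and Cacna1b, and Cplx3 with Cplx4 at 2.20 times Cplx1 with Cplx2. In STZ the level ratios of those 4 pairs were 9.90, 5.96, 2.78 and 2.85.

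The change of a gene over the change of its partner does not depend on how the libraries are scaled. From the counts, the ratio of Slc17a7 to Slc17a6 in STZ was 1.34 times that in buffer (95% counting interval 1.22 to 1.48) and 1.35 times that in saline (1.22 to 1.50). The same measure was 1.16 (1.06 to 1.26) for the complexins, 1.17 (1.04 to 1.30) for the syntaxins and 1.11 (1.04 to 1.18) for the calcium channel pores against buffer. Against saline these were 1.18 (1.08 to 1.29), 1.31 (1.18 to 1.47) and 1.17 (1.09 to 1.25). Not every pair went this way. Unc13b, a priming factor found at photoreceptor ribbons, over Unc13a gave 0.903 (0.806 to 1.01) and 0.770 (0.688 to 0.862). Sv2b over Sv2a gave 0.947 (0.891 to 1.01) and 0.874 (0.822 to 0.929). Vamp2 over Vamp1 and Syn2 over Syn1, which are not split by synapse type in the same way, gave 1.14 (1.06 to 1.22) and 1.11 (0.870 to 1.43) against buffer. Between the controls, Stx3 over Stx1a was at 0.888 (0.792 to 0.996), Unc13b over Unc13a at 1.17 (1.05 to 1.32) and Sv2b over Sv2a at 1.08 (1.02 to 1.16). The spread between 2 control libraries thus reached the size of some of the STZ values. For the complexins the 2 measures differed, since summed reads are not scaled by transcript length. Cplx3 had 2824 reads in buffer and Cplx4 573, although Cplx4 had the higher FPKM (60.4 beside 40.6). The level ratio of this pair, 2.20 in buffer and 2.85 in STZ, therefore rose more than the count measure of 1.16.

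**Figure D4:**
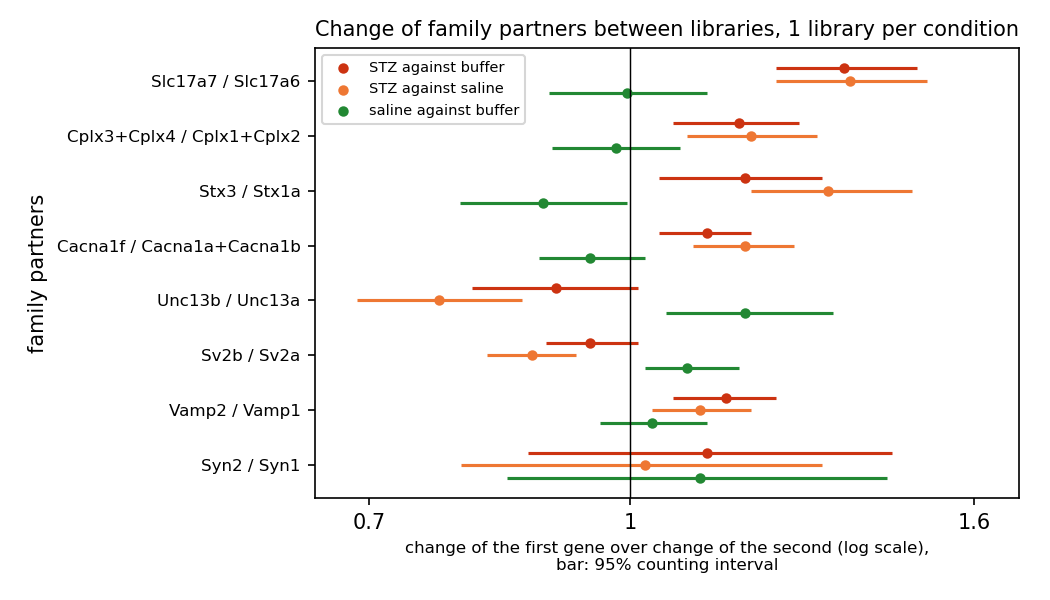
Change of the first gene over the change of its family partner (x axis, log scale) for 8 pairs (y axis), with bars for the 95% counting interval, in STZ against each control and between the controls. For Slc17a7 over Slc17a6 the STZ values lie at 1.34 and 1.35 and the control value at 0.995, while Unc13b over Unc13a lies below 1 in both STZ comparisons.

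Promoter sequence was read for these genes from RefSeq on GRCr8, a build other than the rn6 of the deposited values. An entry was found for 35 of the 41 genes (36 promoters), and none for Snap25, Rims2, Cacna2d4, Nrxn2, Nrxn3 and Shank1. The 250 bases before the annotated start were searched on both strands for TAATCC, the core bound by the photoreceptor factor CRX, for GGGCGG, the GC box, and for TGACGT, the cAMP response element core. These motifs do not contain each other. TAATCC was in 3 of the 36, those of Amph, Cplx4 and Ctbp2, or 8.33%, where 6.34% of all 33469 promoters and 4.95% of those of genes with at least 10 counts held it. GGGCGG was in 23 of the 36 (63.9%), beside 30.5% and 54.8%. TGACGT was in 4 (11.1%), beside 6.95% and 9.87%. The median GC content was 64.2% for these genes and 59.6% for genes with at least 10 counts. These shares are descriptions and carry no test.

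The 3 promoters below belong to genes with high folds in STZ, Slc17a7 (chr1:104785955-104786204, plus strand), Amph (chr17:50678502-50678751, minus strand) and Cacna1f (chrX:17568309-17568558, minus strand). Each is written 5′ to 3′ on the gene's strand and ends at the base before the annotated start, with TAATCC and GGGCGG matches on either strand in capitals. In Slc17a7 the 3 GC boxes begin 98, 46 and 41 bases before the start, and the last pair shares a base.
Slc17a7: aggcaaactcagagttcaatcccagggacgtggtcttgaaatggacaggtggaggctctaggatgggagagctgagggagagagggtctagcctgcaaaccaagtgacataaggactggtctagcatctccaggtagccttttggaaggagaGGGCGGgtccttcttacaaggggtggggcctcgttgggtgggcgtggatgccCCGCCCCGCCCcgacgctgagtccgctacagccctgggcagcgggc
Amph: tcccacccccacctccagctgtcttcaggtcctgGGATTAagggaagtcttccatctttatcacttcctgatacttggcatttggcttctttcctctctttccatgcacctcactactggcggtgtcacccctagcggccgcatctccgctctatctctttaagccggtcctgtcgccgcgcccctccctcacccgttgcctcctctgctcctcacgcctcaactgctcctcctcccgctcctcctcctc
Cacna1f: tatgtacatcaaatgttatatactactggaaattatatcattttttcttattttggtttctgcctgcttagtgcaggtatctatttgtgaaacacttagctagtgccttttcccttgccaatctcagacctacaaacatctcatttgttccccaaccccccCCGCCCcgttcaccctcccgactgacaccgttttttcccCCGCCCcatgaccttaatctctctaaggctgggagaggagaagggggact
In Amph the TAATCC match begins 216 bases before the start, on the opposite strand. Cacna1f holds 2 GC boxes, on the opposite strand, and its window has a GC content of 45.6%. No TAATCC lay in the windows of Slc17a7 or Cacna1f. The 3 genes shown were picked by hand, not by rank of fold. Against buffer, Cplx4 (1.35) and Dlg4 (1.31) had higher folds than Cacna1f (1.30), and Snap25 (1.53) had no promoter entry.

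Other genes of the synapse were read from lists of 131 genes, of which 130 were in the table and 129 averaged 10 or more counts. Against buffer, 67 of the 129 had an interval above 1 and 13 below, and against saline 70 and 13, to be read against the backgrounds given above for these comparisons. Their median log2 fold was 0.14 and 0.15. By the thresholds, 0 of 130 passed against buffer, where 2.25% of all genes passed upward and 1.04% downward. Against saline, 3 (2.31%) were higher and 1 (0.769%) was lower, where 2.04% and 1.75% of all genes were. In saline against buffer, 1 (0.769%) was higher, where 1.00% of all genes were. The 3 genes higher in STZ than in saline, named after their values were seen, were Cabp4, Egflam and Lin7b. Cabp4, which binds the channel encoded by Cacna1f and tunes it, had 369, 318 and 536 reads and folds of 1.42 (1.27 to 1.66) and 1.63 (1.46 to 1.94). Egflam, which encodes pikachurin of the ribbon synapse cleft, had 6424, 5866 and 9265 reads and folds of 1.44 (1.39 to 1.49) and 1.59 (1.52 to 1.63). Lin7b had only 19, 13 and 34 reads.

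Trpm1, the channel of ON bipolar cells that melanocytes also express, was the gene lower than in saline. It had 13 (buffer), 213 (saline) and 19 (STZ) reads. The pigment and ciliary markers as a sum were highest in the same library, at 10012 reads, of which Aldh1a1 held 6838. Grm6, the ON bipolar glutamate receptor, had 3027, 2563 and 3823. The part of pigmented tissue in the Trpm1 value was not tested.

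By list, the 16 further calcium channel genes and calcium binding partners had a median log2 fold of 0.28 against buffer, with 14 intervals above 1 and 1 below. The 23 vesicle recycling genes were at 0.17 with 15 above and 1 below, led in level by Ap2m1, an adaptor subunit for clathrin. The 55 presynaptic and vesicle genes were at 0.12 with 25 above and 4 below. The 35 adhesion and postsynaptic genes were at 0.08, with 13 above and 7 below, and their summed reads had a ratio of 1.01 (0.997 to 1.01). Of all genes with at least 10 counts, 26.2% had an interval above 1 against buffer and 18.8% below.

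Some lists of cell markers moved in the same direction as the synaptic genes, and others did not. The reads of the 41 genes made up 0.492% of the buffer library, 0.477% of saline and 0.566% of STZ. The 12 photoreceptor markers summed to 36263, 33244 and 44121 reads, a ratio of 1.21 (1.20 to 1.23) for STZ against buffer and 0.917 (0.904 to 0.931) for saline against buffer. Bipolar markers stood at 1.30 (1.25 to 1.35), amacrine markers at 1.19 (1.17 to 1.21) and ganglion cell markers at 1.12 (1.09 to 1.14) in STZ against buffer. The median log2 folds of these lists were 0.41 for photoreceptor, 0.35 for bipolar, 0.15 for amacrine and 0.10 for ganglion cell markers. In the bipolar list Grm6 alone held 3027 of the 5372 reads in buffer and 3823 of 6985 in STZ, while Vsx1 had only 3, 7 and 4 reads. The horizontal cell markers summed to 0.861 (0.827 to 0.897) times their share in buffer, but their median log2 fold was 0.13, with 3 of 5 genes above 1, and Prox1 alone held 4297 of the 5060 reads in buffer and 3501 in STZ. Progenitor and cell cycle markers summed to 72167, 72241 and 52820 reads, a ratio of 0.731 (0.722 to 0.739), with a median log2 fold of -0.36. Endothelial and pericyte markers were at 0.733 (0.715 to 0.753) as a sum, of which Kdr held 13149 of 13878 reads in buffer, and at a median log2 fold of -0.67, with Cdh5 at a count ratio of 0.235 and Cldn5 at 0.196. Some markers also sit on the lists of other synapse genes. These are 3 of 7 for bipolar cells (Grm6, Cabp5 and Trpm1), 2 of 11 for amacrine cells (Slc32a1 and Slc18a3) and 1 of 13 for ganglion cells (Sncg). Müller glia markers summed to 1.09 (1.07 to 1.11) with members on both sides, Apoe, which microglia also express, at 3.43 and Rlbp1 at 0.785, and a median log2 fold of 0.06. Of the photoreceptor list, 11 of 12 had an interval above 1 against buffer, where 26.2% of genes with at least 10 counts did. Of the 11 progenitor genes 9 were below, where 18.8% of genes were. The part of each of these lists in the values of the synaptic genes was not tested.

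**Figure D5:**
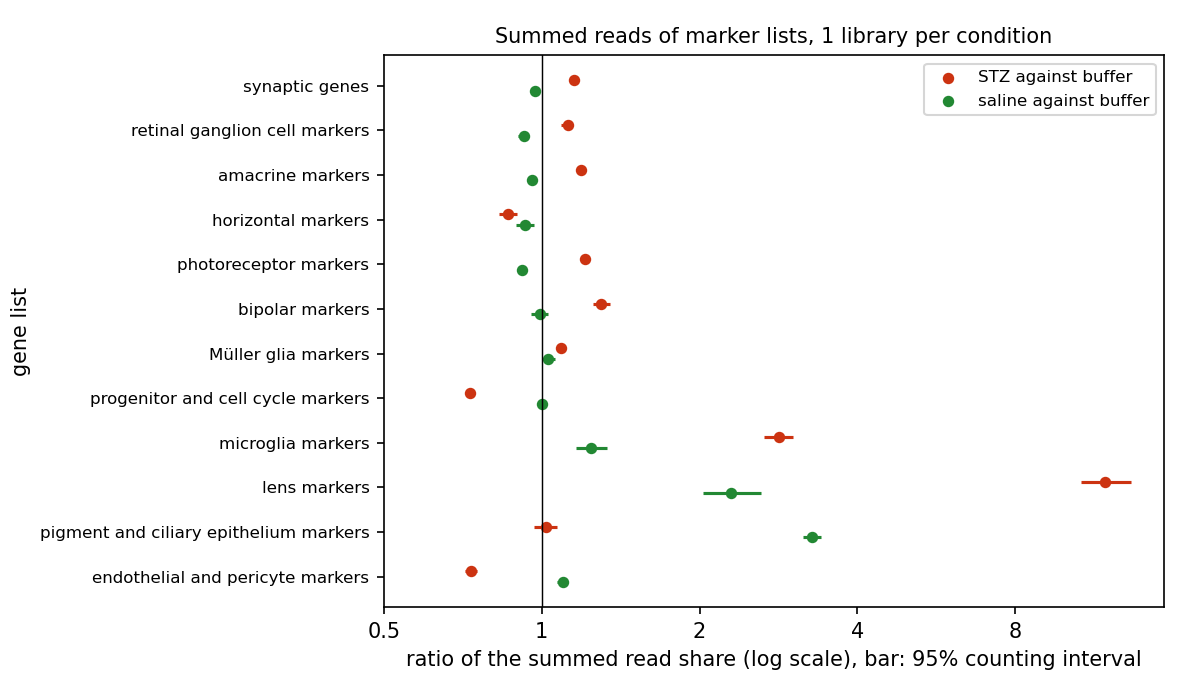
Ratio of the summed read share (x axis, log scale) of the 41 synaptic genes and of 11 marker lists (y axis) in STZ against buffer and in saline against buffer, with bars for the 95% counting interval. The synaptic genes lie at 1.15 in STZ against buffer, between the ganglion cell markers at 1.12 and the amacrine markers at 1.19, while progenitor markers lie at 0.731 and lens markers at 11.9.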

How the data were processed

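Retinal RNA of 3 libraries, 1 per group, was sequenced on an Illumina HiSeq instrument. The authors checked reads with FastQC, trimmed them, aligned them to the rat genome with TopHat2, allowing 2 mismatches, and discarded reads with several genomic locations. The submitters' processing notes name the build rn6. The authors computed FPKM with their own R script. The annotation, the read counter and its use of strand are not given in the sources used here. The authors deposited FPKM, TPM and an estimated read count per gene, as estimated counts that are fractional for 2858 of 18425 genes, and these were rounded for intervals. The tables per library and the table of all 3 hold the same values. Across the 41 genes the FPKM ratio of STZ to buffer was 0.963 to 1.03 times the count ratio.

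Samples were grouped by their titles. Each control was compared with STZ, and saline with buffer, as (FPKM + 1)/(FPKM + 1) with the thresholds of the study, 0.62 and -0.62 on the log2 scale, and as count ratios with 95% Clopper-Pearson intervals. Pair intervals used the normal approximation to the log ratio of 4 counts. Medians used genes averaging 10 or more counts. All 41 genes were described by role: in full those past a threshold, those whose interval excludes 1 the same way against both controls, and the highest of each role. Of other synapse genes, those past a threshold the same way against both controls were to be named, but none passed this rule. The few named in the text were therefore chosen after their values were seen. The members and lists were chosen with earlier results of these data known. The alternatives tried were pseudocount 0.1, thresholds of 2 and 0.5, the deposited TPM, CPM from counts, scaling by edgeR 4.0.16 (TMM) or DESeq2 1.42.0 (median of ratios), a mean of at least 50 counts, whole-number counts only, the counting interval as the call and the mean of both controls. No count model was fitted. Calculations were tested on simulated data. Python 3.11.15, numpy 2.4.6, pandas 2.3.3, scipy 1.17.1, matplotlib 3.10.9 and R 4.3.3 were used.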

Additional observations from a re-analysis of the deposited data

How the results depend on the processing

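The median log2 fold of the 41 genes kept its sign under each alternative tried in the 3 comparisons, from 0.141 with TMM factors to 0.195 against the mean of both controls for STZ against buffer, 0.217 to 0.242 for STZ against saline and -0.055 to -0.034 for saline against buffer. Of 656 recomputed folds of single genes, 636 stayed inside the gene's counting interval, 20 moved outside it and 0 turned in direction with an interval excluding 1. The number past the thresholds depended on small shifts near the upper one. In STZ against buffer it went from 0 to 1 with a pseudocount of 0.1 and to 1 against the mean of both controls, since Snap25 and Slc17a7 lie at 1.53. In STZ against saline it went from 1 to 0 with thresholds of 2 and 0.5. With the counting interval as the call it was 31 in each STZ comparison and 9 between the controls. For the other synapse genes in STZ against buffer, 0 became 3 with a pseudocount of 0.1, 3 with TPM, 1 with CPM, 1 with TMM factors, 1 with median-of-ratios factors and 80 by the counting interval. Against saline, 4 became 7 with a pseudocount of 0.1, 1 with thresholds of 2 and 0.5 and 83 by the interval, and between the controls 1 became 45 by the interval. All these interval calls are to be read beside the shares of genes with at least 10 counts. In STZ against buffer 26.2% had an interval above 1 and 18.8% below, and in STZ against saline 26.9% and 23.5%. Between the controls 27.8% excluded 1 in either direction. Under TMM factors 31 of the 41 genes had a fold above 1 against buffer. No paired analysis was possible because each group holds 1 library, even where the STZ and buffer retinas came from the same animals, and none could be omitted. Differences within the counting intervals were not detectable at this depth, and the spread between animals is unknown.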
